A study of Mus musculus with 6 samples.

Results

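Red pulp macrophage genes were followed in 6 RNA-sequencing libraries of sorted regulatory T (Treg) cells, the FOXP3-expressing CD4+ T cells that restrain immune responses. The genes were Spic, Hmox1, Slc40a1, Cd5l, Vcam1, C1qa, C1qb, C1qc, Adgre1 and Csf1r, found by symbol as 10 of the 24420 genes of the deposited table. They were chosen by name after macrophage genes had been seen to vary between these same libraries, so their spread between libraries and their joint variation are given as description, with no test. All 10 passed the filter on low counts. All came from Foxp3 YFP-Cre/wt females. The Twt group held 3 OGT-sufficient libraries (Ogt wt/fl), and the Tko group held 3 OGT-deficient libraries (Ogt fl/fl). OGT is the enzyme that attaches O-GlcNAc to intracellular proteins. All mice were C57BL/6, all carried 1 Cre-bearing and 1 wild-type Foxp3 allele and at least 1 floxed Ogt allele, and none is labelled as treated. Ages are not given in the labels, and the study's methods give only a general range in weeks that is not specific to these libraries. Cre is driven by the Foxp3 locus, so deletion is directed to cells that express Foxp3. Isolation used CD4 selection beads and then a YFP sort, and the tissue is labelled lymph nodes.

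Red pulp macrophages live in the spleen, where they engulf aged red blood cells, break down haem and return the iron to the blood. The transcription factor SPI-C is required for their development, and haem induces its gene. Other tissue macrophages, in bone marrow and liver among them, share many of these genes, and C1q, F4/80 (the product of Adgre1) and the CSF1 receptor mark tissue macrophages widely. Treg cells are not known for this program. The tissue label names lymph nodes only, while the study's methods describe T cell purifications for other assays, with the same CD4 beads among them, that started from spleen as well as lymph nodes. The sequencing methods name no organ, so whether spleen cells entered these libraries is not known, and the name used here for the genes describes where the set is best known, not where these cells came from.

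The labels could be checked against Foxp3 and Cd4, which were detected in every library with 719 to 1116 and 2022 to 2811 counts. Ogt stood at 190 ± 53.7 CPM (counts scaled to library size, SD, n = 3) in Twt and 82.4 ± 14.6 in Tko, a log2 fold change of -1.21 (SE 0.21) with groups that did not overlap and an adjusted p of 0.191 by edgeR's quasi-likelihood test. Library totals ran from 3375454 to 4103552 counts, of which the ribosomal RNA gene Rn45s took 24.2% to 37.1%. Without Rn45s the totals lay between 2488303 and 2686873. Twt 3 stood apart, with 18346 genes detected against 14412 to 15197 in the other 5 libraries, so the members' ratios and fold changes that rest on it are also given without it. CPM here are scaled by edgeR's TMM factors, and 3 counts correspond to 0.756 to 0.805 CPM.

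The promoters of a pair of members are shown because these genes belong to different branches of the program, an apoptosis inhibitor and a complement subunit, and moved together across libraries. RefSeq (GRCm38.p6) promoters were matched for 4 of the 10 members. The RefSeq start sites of Spic and C1qc lie 1992 and 151 bases inside the GENCODE gene, and their promoters are not shown. The 250 bases before the start site are printed 5′ to 3′ on the gene's strand, and capitals mark AGGAAG or its reverse complement, a core that ETS-family factors such as PU.1 and SPI-C can bind.
Cd5l, chr3:87357631-87357880, plus strand: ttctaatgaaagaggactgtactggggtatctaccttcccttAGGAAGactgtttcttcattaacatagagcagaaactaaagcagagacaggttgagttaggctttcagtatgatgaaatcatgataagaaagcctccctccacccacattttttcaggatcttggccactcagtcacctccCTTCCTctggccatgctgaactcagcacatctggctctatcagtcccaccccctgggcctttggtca
C1qb, chr4:136886201-136886450, minus strand: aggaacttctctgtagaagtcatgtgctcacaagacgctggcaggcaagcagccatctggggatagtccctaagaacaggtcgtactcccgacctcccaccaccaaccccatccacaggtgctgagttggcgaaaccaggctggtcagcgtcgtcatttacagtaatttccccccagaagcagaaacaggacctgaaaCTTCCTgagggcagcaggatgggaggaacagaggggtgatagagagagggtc
The Cd5l window held 2 matches to AGGAAG, at 208 and 67 bases before the start site, and the C1qb window held 1, at 52 bases before it. Matches on both strands were counted, overlaps included. The same letters occur in 29.5% of 32851 promoter windows of this length, so their presence is common. TGCTGA, the core of MAF recognition elements, was found in both windows and in 16.1% of all windows, and TGANTCA, an AP-1 motif, in neither and in 6.75% of all. The motifs were chosen with the sequences in view, and a match is a description of letters only.

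Spic encodes SPI-C, the factor that defines red pulp macrophages, and lies on chromosome 10 at 88674772 to 88685015 (GRCm38, minus strand). Its counts were 472, 391 and 208 in Twt 1 to 3 and 110, 387 and 574 in Tko 1 to 3. Tko 1 was lowest and Tko 3 highest, so the extremes of all 6 libraries both fell within the OGT-deficient group. In CPM this was 28.3 (exact Poisson 95% interval 23.2 to 34.1, which covers counting error only) in Tko 1 and 149.8 (138 to 163) in Tko 3, a ratio of 5.30. Without Tko 1 the ratio was 2.76. Only 2.48% of the 10949 tested genes had a larger ratio than 5.30 of highest to lowest library. In bulk libraries like these, fewer cells of a type and less RNA per cell cannot be told apart. Spic averaged 95 ± 36.6 CPM in Twt and 91.9 ± 61.0 CPM in Tko (SD, n = 3), a log2 fold change of -0.05 (SE 0.50, adjusted p = 0.984, edgeR quasi-likelihood).

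Hmox1 and Slc40a1 carry out consecutive steps of iron recycling. Hmox1 encodes haem oxygenase 1, which opens the haem ring and frees its iron, and lies on chromosome 8 at 75093621 to 75100589 (plus strand). Its counts were 1287, 1714 and 761 in Twt and 799, 2427 and 2171 in Tko. Slc40a1 encodes ferroportin, the iron exporter, and lies on chromosome 1 at 45908068 to 45926523 (minus strand). Its counts were 1543, 1282 and 732 in Twt and 604, 2135 and 1959 in Tko. For both genes Tko 2 was highest and Twt 3 and Tko 1 were lowest, with overlapping groups. Hmox1 spanned 199.5 to 611 CPM and averaged 334 ± 130.4 in Twt and 461 ± 223 in Tko, a log2 fold change of 0.47 (SE 0.40, adjusted p = 0.844). Slc40a1 spanned 155 to 538 CPM and averaged 315 ± 112 and 401 ± 214, a log2 fold change of 0.35 (SE 0.43, adjusted p = 0.892). Per kilobase of exon, Hmox1 had the highest mean of the 10 members, at 227 RPKM, against 161 for Cd4 and 56.1 for Foxp3. The order differed between libraries. In Twt 1 C1qb was above Hmox1, at 207 against 196 RPKM, and Hmox1 was below Cd4 in Twt 3, at 114 against 131 RPKM, and in Tko 1, at 117 against 179 RPKM.

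Cd5l encodes AIM, a secreted protein that macrophages make and that protects them from apoptosis, and lies on chromosome 3 at 87357881 to 87371073 (plus strand). The library counts of Cd5l were 649, 850 and 211 in Twt and 299, 1122 and 927 in Tko. Its libraries fell in the same order as those of Hmox1, with Twt 3 at the bottom and Tko 2 at the top. The range was 55.3 to 283 CPM, a ratio of 5.11 that 2.67% of tested genes exceeded. Without Twt 3 the ratio was 3.61. Means were 152 ± 88.2 CPM in Twt and 200.5 ± 109 CPM in Tko, with a log2 fold change of 0.40 (SE 0.54, adjusted p = 0.90). Single libraries carried that value, which was 0.0046 without Twt 3, 0.09 without Tko 2, 0.27 without Tko 3, 0.82 without Twt 2 and 0.79 without Tko 1.

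Vcam1 encodes the adhesion molecule that binds integrin α4β1 on lymphocytes, and lies on chromosome 3 at 116109949 to 116129688 (minus strand). Vcam1 counts were 5125, 4819 and 2818 in Twt and 1708, 6572 and 8619 in Tko. Vcam1 was the largest member by count, holding 32.8% to 40.6% of the members' summed counts in each library. Tko 1 was lowest at 439 CPM and Tko 3 highest at 2249 CPM, a ratio of 5.13 that was 3.05 without Tko 1. The means of 1132 ± 342 CPM in Twt and 1448 ± 923 CPM in Tko gave a log2 fold change of 0.36 (SE 0.49, adjusted p = 0.901). At least 1 exon overlaps Gm43109 on the opposite strand, and the use of strand in counting is not given in the sources used here.

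C1qa, C1qb and C1qc encode the chains of C1q, which starts the classical complement pathway and tags dying cells for uptake. The genes lie within 18675 bases of chromosome 4, on the minus strand, with C1qb at 136880129 to 136886187, C1qc at 136889804 to 136893065 and C1qa at 136895917 to 136898803. C1qa had 606, 451 and 219 counts in Twt and 202, 701 and 821 in Tko. C1qb had 845, 723 and 317 counts in Twt and 391, 1160 and 1171 in Tko. C1qc had 731, 566 and 295 counts in Twt and 309, 945 and 921 in Tko. All 3 chains were highest in Tko 3 by CPM, next highest in Tko 2, and lowest in Twt 3 or Tko 1. The ratio of C1qb to C1qc counts varied by 1.19-fold over the 6 libraries, the smallest variation among the 45 pairs of members, while each gene's own level varied by 3.68 and 3.11-fold. C1qa averaged 113 ± 52.4 CPM in Twt and 148 ± 85.0 CPM in Tko (log2 fold change 0.38, SE 0.49, adjusted p = 0.90). C1qb averaged 167 ± 74.5 and 233 ± 115 CPM (0.48, SE 0.44, adjusted p = 0.854), and C1qc 141 ± 59.3 and 186 ± 92.3 CPM (0.40, SE 0.43, adjusted p = 0.875). For none of the chains did the groups separate.

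Adgre1 encodes F4/80, the classical surface marker of mouse macrophages, and lies on chromosome 17 at 57358691 to 57483527 (plus strand). Adgre1 counts were 923, 574 and 334 in Twt and 256, 1020 and 845 in Tko. Csf1r encodes the receptor for CSF1 and IL-34, on which most tissue macrophages depend for survival, and lies on chromosome 18 at 61100598 to 61132149 (plus strand). Csf1r counts were 2470, 1850 and 1045 in Twt and 536, 2762 and 3418 in Tko. Csf1r had the widest spread of the 10, from 138 CPM in Tko 1 to 892 CPM in Tko 3, a ratio of 6.48 that 1.51% of tested genes exceeded. That rank rested on Tko 1, without which the ratio was 3.27 for Csf1r and 5.14 for Cd5l, then the widest. Adgre1 averaged 162 ± 79.4 CPM in Twt and 181 ± 102 CPM in Tko (log2 fold change 0.16, SE 0.48, adjusted p = 0.954). Csf1r averaged 476 ± 192 and 575 ± 391 CPM (0.27, SE 0.56, adjusted p = 0.927). The exons of Csf1r overlap those of Hmgxb3 on the opposite strand.

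**Figure D1:**
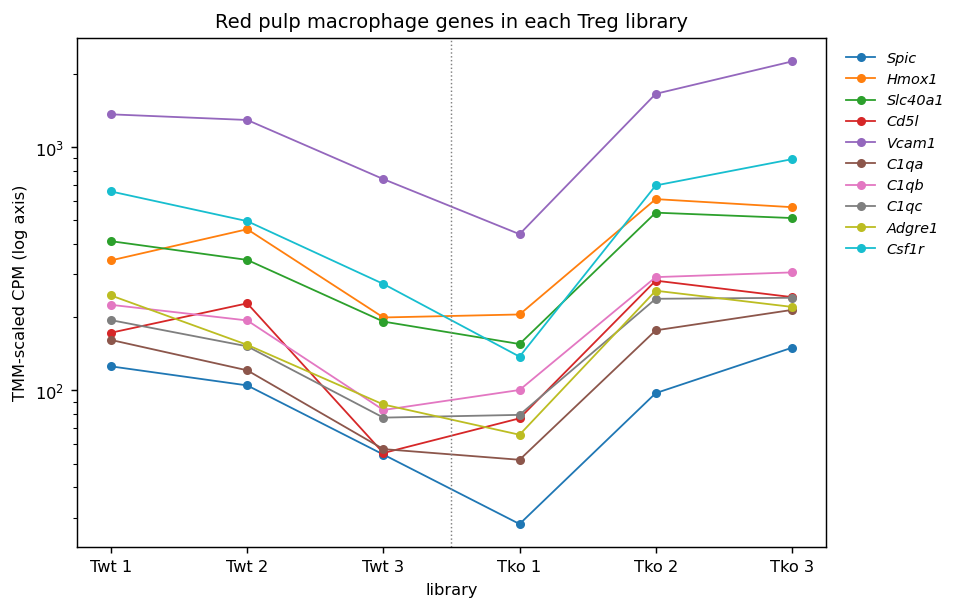
TMM-scaled CPM of each of the 10 genes (log axis) in each library, with lines joining the values of 1 gene and a dotted line between the groups. Every gene is low in Twt 3 and Tko 1 and high in Tko 3, and the 3 Twt and 3 Tko libraries overlap for each.

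Compared library by library, the members separated Twt 3 and Tko 1 from the rest. Summed over the 10 genes, the level was 3899, 3547 and 1819 CPM in Twt 1 to 3 and 1339.5, 4845 and 5592 CPM in Tko 1 to 3. As a share of counts without Rn45s this was lowest in Tko 1 at 0.202% (Wilson 95% interval 0.197% to 0.208%) and highest in Tko 3 at 0.830% (0.819% to 0.841%). All 10 members were below the mean of the other 5 libraries in Twt 3 and in Tko 1, and all 10 were above it in Tko 2 and in Tko 3. The median log2 difference from the other 5 was -1.12 in Twt 3, -1.43 in Tko 1, 0.68 in Tko 2 and 0.73 in Tko 3. Over all tested genes the same medians lay between -0.04 and -0.01. At least 2-fold lower levels were seen for 8 of 10 members in Twt 3, where 3.61% of all tested genes were that low, and for 10 of 10 in Tko 1, where 4.92% were. In Tko 3, 1 member, Vcam1, was at least 2-fold higher, as were 1.05% of all tested genes. These shares describe the pattern that the members were selected on.

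The highest library exceeded the lowest by at least 3-fold for all 10 members, from 3.06-fold for Hmox1 to 6.48-fold for Csf1r, with a median of 4.02. Across all tested genes the median was 1.59, 27.5% reached 2-fold and 10.3% reached 3-fold. Without Twt 3 the members' median ratio was 3.72, and without Tko 1 it was 3.10. Not every member then reached 3-fold. Without Tko 1 the ratio was 2.76 for Spic, 2.82 for Slc40a1 and 2.95 for Adgre1, and without Twt 3 it was 2.92 for Hmox1, 2.99 for C1qb and 2.97 for C1qc. Scaled by library size only, Hmox1 was at 2.78 and C1qc at 2.80. The biological coefficient of variation within groups, as edgeR estimated it, had a median of 0.412 over the members and 0.159 over all tested genes.

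**Figure D2:**
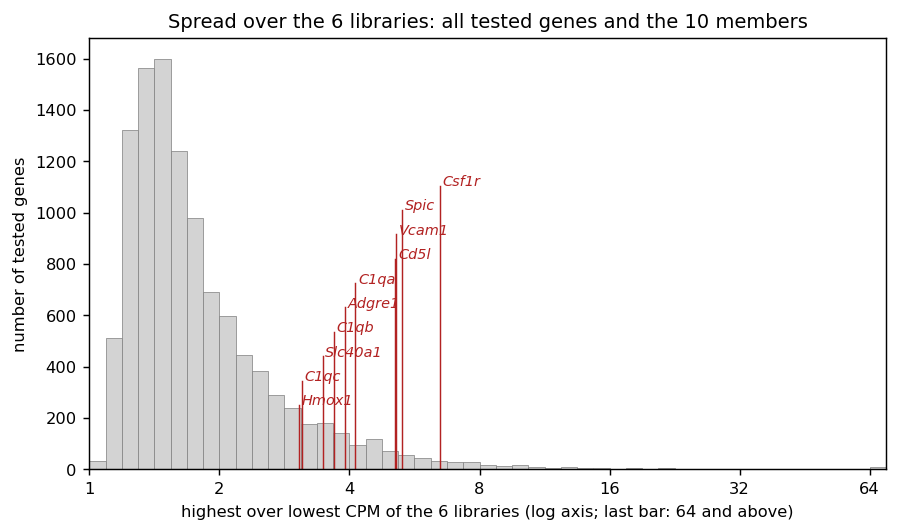
Histogram of tested genes by the ratio of their highest to their lowest CPM over the 6 libraries (log axis), with red lines at the 10 members, whose heights serve only to separate the names. The members lie from 3.06 to 6.48, to the right of the median of 1.59 over all tested genes.

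The proportions among the members varied less than their sum, which varied by 4.17-fold. Over the 45 pairs, Pearson's r of log2 CPM across the 6 libraries ran from 0.802 to 0.993 with a median of 0.937. The libraries share depth and composition in all pairs, and the members were chosen with this in view. The ratio of a pair of counts varied by 1.80-fold in the median pair and by at most 2.86-fold, for Hmox1 to Csf1r. Hmox1 took 8.78% to 15.3% of the members' counts and Csf1r 10.3% to 16.9%, and in Tko 1, the lowest library, Hmox1 had its largest share and Csf1r its smallest. Slc40a1 followed the mean of the other 9 members most closely (r = 0.993) and Cd5l least (r = 0.921).

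Within this set, Spic made up a larger share in Twt than in Tko. It took 3.22%, 2.96% and 3.0% of the members' counts in Twt 1 to 3 and 2.11%, 2.01% and 2.68% in Tko 1 to 3, and the groups did not overlap. The ratio of Spic to C1qa counts was 0.779, 0.867 and 0.95 in Twt and 0.545, 0.552 and 0.699 in Tko. Groups were also separate for the ratios of Spic to Vcam1, C1qb and C1qc, giving 4 of 45 pairs of members. Among all pairs of tested genes 13.2% had separate groups, a larger share than among the members, so this is no result about them. With 3 against 3 libraries an exact two-sided permutation test cannot go below 0.1.

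**Figure D3:**
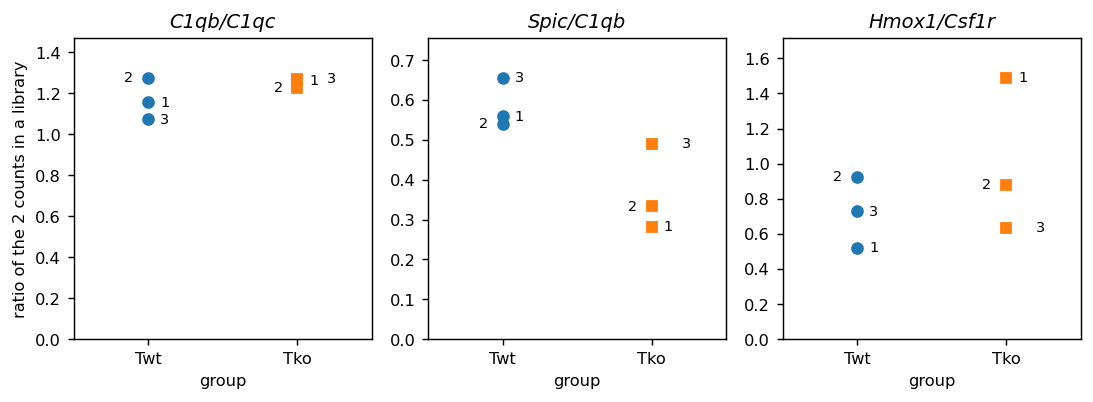
Ratio of the counts of a pair of members in each library (numbers are replicates, circles Twt, squares Tko, axes from 0). C1qb to C1qc varies by 1.19-fold, Spic to C1qb is higher in all 3 Twt than in all 3 Tko libraries, and Hmox1 to Csf1r varies by 2.86-fold and overlaps.

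Between genotypes, no member passed the test. At an FDR of 0.1, 0 of 10 members were called by edgeR's quasi-likelihood test, where 0.0274% of the tested genes were. At an unadjusted p under 0.01 it was again 0 of 10, against 1.84% of all, and 0 of 10 had groups that did not overlap, against 13.2% of all. Log2 fold changes of Tko over Twt were positive for 9 of 10 members and for 47.3% of all tested genes. The members vary together across libraries, so the 9 are not separate observations of a direction. The values ranged from -0.05 for Spic to 0.48 for C1qb, with a median of 0.37 beside -0.02 over all tested genes. The sum of the members was 3088 ± 1113 CPM in Twt and 3926 ± 2270 CPM in Tko (SD, n = 3). The interval of each difference was wide. For Spic it ran from -1.19 to 1.09 on the log2 scale, for Hmox1 from -0.45 to 1.38 and for Csf1r from -1.0 to 1.55, so these intervals include both 0 and a 2-fold difference. Genotype accounted for 0.0127% to 9.18% of the sum of squares of the members' log2 CPM. The median log2 fold change fell to 0.08 without Twt 3, 0.17 without Tko 2 and 0.11 without Tko 3, and was 0.62 without Twt 1 and 0.77 without Tko 1. Without Twt 3 the log2 fold change was 0.21 for Hmox1, 0.09 for Slc40a1, 0.07 for C1qa, 0.16 for C1qb, 0.11 for C1qc, 0.13 for Vcam1, -0.32 for Spic, -0.14 for Adgre1 and -0.0018 for Csf1r, each lower than the value with it. No batch is named in the labels, so no value within batches could be given.

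**Figure D4:**
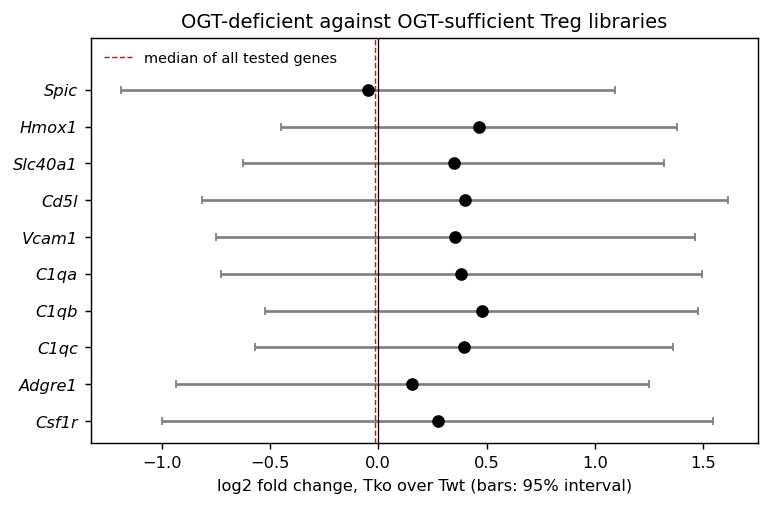
Log2 fold change of each member, Tko over Twt, from edgeR, with 95% intervals as bars, a solid line at 0 and a dashed line at the median of all tested genes. All 10 intervals include 0. Of the points of the members, which vary together, 9 of 10 lie above 0, as do 47.3% of all tested genes.

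Most of the other macrophage genes listed and tested were also low in Twt 3 and Tko 1, with exceptions named below. Of 10 further red pulp macrophage genes, 10 were tested and 0 passed p under 0.01. Their sum was 1845, 1494 and 862 CPM in Twt and 559.8, 2232 and 2623 CPM in Tko, the same order of libraries as for the members. Mrc1, the mannose receptor, had 1799, 1298 and 894 counts in Twt and 511, 2307 and 2882 in Tko. Axl, a receptor for apoptotic cells, had 1742, 1384 and 756 counts and then 602, 2356 and 2227. Itgad, the integrin αD chain typical of red pulp macrophages, had 837, 605 and 409 counts and then 159, 809 and 1108. In this list 9 of 10 genes correlated with the members' mean at r over 0.8, as did 7.89% of the tested genes that are no members. The remaining gene, Timd4, had 175, 159 and 66 counts in Twt and 144, 320 and 242 in Tko (r = 0.796). It is named here after its values were seen.

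Of 19 pan-macrophage and myeloid genes, 17 were above r of 0.8. Ctsb, a lysosomal protease, spanned 537 to 1817 CPM, Apoe, the lipid carrier, 384 to 1209 CPM, and Ctss, another lysosomal protease, 256 to 569 CPM, with overlapping groups for each. Itgam, the integrin αM chain of myeloid cells, ran the other way (r = -0.67), with 41, 19 and 112 counts in Twt and 73, 28 and 54 in Tko, and was highest in Twt 3 and Tko 1. It is named here after its values were seen. The only gene of the list past p under 0.01 was Lyz2, lysozyme, with 495, 406 and 339 counts in Twt and 678, 804 and 515 in Tko (log2 fold change 0.63, unadjusted p = 0.0081 by edgeR), which did not pass the FDR of 0.1. Lyz2 did not follow the members either (r = 0.23). Among 7 genes of lymph node and marginal zone macrophages 3 were tested and 0 passed. The scavenger receptor Marco had 313, 182 and 94 counts in Twt and 125, 234 and 248 in Tko, and Siglec1, the sialoadhesin of sinus-lining and marginal zone macrophages, had 164, 124 and 72 and then 70, 358 and 196. Cd209b, a lectin of marginal zone macrophages, had 10 to 48 counts and did not share the pattern (r = 0.26). Lyve1, Folr2 and Vsig4, other markers of the list, had at most 5 counts in any library.

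Partners of the members were less uniform. Among haem and iron genes, 16 of 20 were tested, 0 passed p under 0.01 and 7 exceeded r of 0.8. Lrp1, which takes up haem bound to haemopexin, had 2301, 1817 and 812 counts in Twt and 636, 2486 and 2773 in Tko and followed the members (r = 0.99), while Fth1, ferritin heavy chain, had 1672, 1402 and 922 and then 1472, 2024 and 1635 (r = 0.71). Cd44, a widely expressed adhesion receptor, spanned 185 to 439 CPM (r = 0.90). Of 18 complement genes 10 were tested and 0 passed. Cfp, properdin, followed the members (r = 0.99), as did C3 (r = 0.95), but Calr, calreticulin, did not (r = 0.05). C1ra and C1s1, which encode the proteases that join C1q in the C1 complex, had at most 2 counts in any library, and C1rb had none.

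The CSF1 receptor pathway had 14 of 15 genes tested, with 0 higher and 1 lower at p under 0.01. That gene was Csf1 itself, a ligand of the receptor, with 57, 49 and 41 counts in Twt and 23, 26 and 30 in Tko (log2 fold change -0.94, unadjusted p = 0.00295, edgeR). The signalling genes Inpp5d, Cbl and Pik3cg stayed within 1.25, 1.16 and 1.35-fold over the libraries. Of the 4 integrin chains that pair in VCAM1 receptors, all were tested. Itgb1, the β1 chain, had 1700, 1777 and 1256 counts in Twt and 858, 922 and 1001 in Tko (log2 fold change -0.82, unadjusted p = 0.000557, edgeR), and Itga4, the α4 chain, 2153, 2080 and 2256 and then 1933, 1879 and 1745 (-0.27). Neither passed the FDR of 0.1. Itgb7, the β7 chain, had 814 to 1418 counts with overlapping groups. Itga9, the α9 chain, had 638, 389 and 258 counts in Twt and 177, 648 and 707 in Tko. It followed the members (r = 0.97), while Itgb1 (r = 0.18), Itga4 (r = -0.39) and Itgb7 (r = -0.32) did not. Itga9 is named here after its values were seen.

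**Figure D5:**
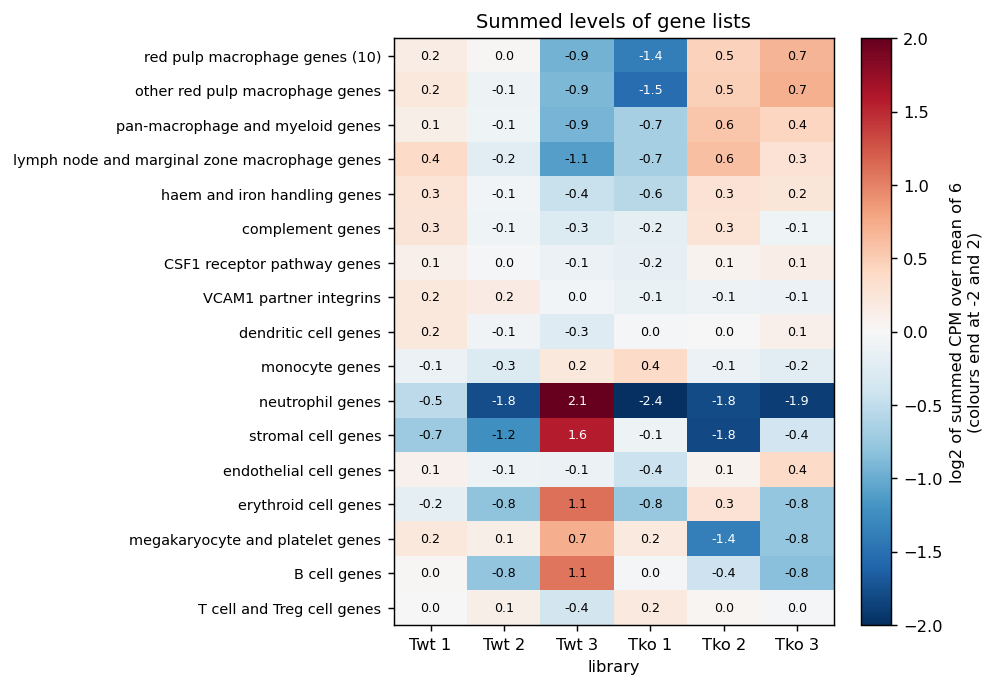
Log2 of each list's summed CPM over its mean in the 6 libraries (rows are lists, columns libraries, red high and blue low). The members and the first 3 lists under them are low in Twt 3 and Tko 1. Neutrophil, stromal, erythroid and B cell lists are highest in Twt 3, the stromal and platelet lists resting on few counts.

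Markers of other cell types were measured in the same way. T cell and Treg cell genes, all 12 tested, summed to 2863 CPM in Twt 3 and 3585 to 4226 CPM in the other 5 libraries, a ratio of 1.48, and their sum did not follow the members (r = 0.13). In this list 1 gene, Tigit, was lower at p under 0.01, and Cd4, Ikzf2 and Il2ra, its most abundant genes, did not pass. Dendritic cell genes, with 8 of 12 tested and 0 past the threshold, summed to 171 to 237 CPM. Irf8, the most abundant of them, spanned 80.5 to 119.8 CPM, with Siglech at 17.3 to 34.2 CPM and Ccr9 at 19.9 to 30.6 CPM. Monocyte genes, with 7 of 8 tested, held 1 gene higher (Nr4a1) and 1 lower (Ccr2) in Tko at p under 0.01. Neither followed the members (r = 0.15 and -0.09). The study lists Ccr2 among the effector Treg cell markers lowered by OGT loss, so it is not read here as a measure of monocytes. Which cells carried either change was not tested. Fn1, fibronectin, of the same list ran opposite to the members, with 260 and 342 counts in Twt 3 and Tko 1 and 47 to 99 in the other 4 libraries, and Plac8 had 42 to 109 counts.

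Twt 3, 1 of the pair of libraries with low member levels, also had the highest levels of several blood lineages. Neutrophil genes, of which 4 of 10 were tested, summed to 319.9 CPM in Twt 3 and 14.6 to 52.2 CPM elsewhere, led by Ngp, S100a9 and Ltf at 384, 292 and 256 counts. Erythroid genes, with 8 of the 13 in the table tested, summed to 931 CPM in Twt 3 and 249 to 532 elsewhere, with Slc4a1 at 1714 counts, Alas2 at 726 and Car2 at 454, while Hba-a1, Hba-a2 and Hbb-bt had no count in any library. B cell genes, all 9 tested, summed to 376 CPM in Twt 3 and 100.2 to 181 elsewhere, with Ms4a1, Cd79b and Cd22 at 305, 247 and 260 counts. None of these lists had a gene past p under 0.01 between genotypes. Tko 1, the other low library, was not raised for neutrophil or erythroid genes, at 14.6 and 256 CPM. Its B cell sum of 174 CPM was near the 181 of Twt 1 and above Twt 2, Tko 2 and Tko 3, at 103, 134.5 and 100.2. The monocyte list, which holds Fn1, summed highest in Tko 1 at 277 CPM and next in Twt 3 at 245. Stromal genes had 0 of 10 tested, with Col1a2, Col1a1 and Col3a1 at no more than 16 counts and Ccl19 and Ccl21a at 0. Platelet genes had 1 of 6 tested, with at most 25 counts for Gp1ba, 18 for Itga2b and 4 for Pf4. Of 10 endothelial genes 5 were tested and 0 passed, with Madcam1 and Emcn at 0 and Eng at 12 to 18 counts. Pecam1 had 544 to 801 counts and Stab2, a scavenger receptor of sinusoidal endothelium, 94 to 353 (r = 0.97). The part of these cell types in the members' levels was not tested.

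Among the 3004 tested non-member genes whose highest library was at least 2-fold above the lowest, 292 (9.72%) correlated with the members' mean at r of 0.9 or more over the 6 libraries, and 5 at -0.9 or less. The most alike was Fcgr3, an Fc receptor for IgG, at r = 0.999, with 252, 233 and 118 counts in Twt and 101, 314 and 338 in Tko. Slc37a2 followed at 0.998, then Axl at 0.996, Hfe, which regulates iron uptake, at 0.995, and Lrp1, Cfp and the lysosomal phospholipase Pla2g15 at 0.994 each. Tmem106a, Ptprj, Plxnb2, Clec4a1 and Ltbr each reached 0.993. The genes least alike were Alox15 (r = -0.94, 5 to 27 counts), Rad51c (r = -0.94, 7 to 15 counts) and Dapl1 (r = -0.93, with 103 and 87 counts in Twt 3 and Tko 1 and 38 to 43 elsewhere). With 6 libraries as points, these values rank the genes and carry no test.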

How the data were processed

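RNA of YFP+ Treg cells was sequenced as paired ends in 3 Twt and 3 Tko libraries. The authors deposited 1 table with a whole-number read count per gene and library, used here as counts without normalization. The same table holds the authors' own comparison: p-values raw and adjusted, fold changes, differences, group means and ranges. None of these was used. The submitters' processing notes name Trimmomatic 0.33, FastQC, Bowtie2 2.2.4.0, featureCounts, edgeR and build mm10, whereas the study's methods name Cuffquant for quantification, so which tool made the counts is open. Strandedness and reads shared between genes are not given in the sources used here, and both affect overlapping genes.

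Groups follow the labelled genotypes. Counts were fitted for the whole table in R 4.3.3 with edgeR 4.0.16: TMM scaling, filterByExpr at a minimum count of 10 (10949 of 24420 genes tested), quasi-likelihood test without a block, Benjamini-Hochberg adjustment over all tested genes, thresholds FDR 0.1 and unadjusted p 0.01. Standard errors were taken as the size of a log2 fold change divided by the root of its F statistic. Log2 CPM used a prior count of 2. RPKM divided CPM by the GENCODE M21 exon length (GRCm38, the build named mm10), which 96.4% of tested genes had. Scripts were tested on simulated data. The members and lists were chosen with earlier results of these data known. All members were named. From each list the text names the 3 genes with the highest mean CPM, any gene past FDR 0.1 and defining markers without a count. The 12 genes most like the members and the 3 least like them were named by r. Genes at unadjusted p under 0.01 were also named after their values were seen. Alternatives were DESeq2 1.42.0, edgeR's exact test, other scalings, other filters, a replicate block and each library left out. Same-numbered libraries did not deviate together (r of -0.28, 0.01 and -0.12), and no pair of libraries of 1 group agreed within sampling noise (chi-square per degree of freedom 3.49 to 24.2). The labels do not say how many mice gave each library, so p-values measure the spread between these libraries. Intervals on counts cover counting error only.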

Additional observations from a re-analysis of the deposited data

How the results depend on the processing

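No member passed an FDR of 0.1 or an unadjusted p of 0.01 under any alternative that gave such a count, and the members' adjusted p ranged from 0.642 to 1. Under DESeq2, the exact test, other scalings, other filters and the replicate block, all 80 log2 fold changes of members kept their direction. Ratios of highest to lowest library were recomputed under 3 other library scalings, a scaling to T cell and Treg cell genes and no filter. The 55 values (10 members and their median in 5 settings) moved by less than the replicate spread. That spread, the SD of log2 CPM within groups, was 0.76 to 1.13 for the members, so it is a wide margin that few shifts could pass. The members' median ratio was 3.66 to 4.25 in these settings, against 4.02 in the reported fit. With the replicate block the members' median log2 fold change was 0.28. The numbers mark no shared source, and the block took the genes past FDR 0.1 from 3 to 0. With 1 library left out, 52 of 60 log2 fold changes kept their direction and 8 turned. Over these fits they spanned -0.56 to 0.38 for Spic, -0.15 to 0.62 for Adgre1, -0.16 to 0.74 for Csf1r and -0.08 to 0.79 for Vcam1. Spic was 0.24 without Twt 1, 0.03 without Twt 2 and 0.38 without Tko 1. Adgre1 was -0.14 without Twt 3 and -0.15 without Tko 2, Csf1r -0.0018 without Twt 3 and -0.16 without Tko 3, and Vcam1 -0.080 without Tko 3. Without the low-count filter 59.3% of genes reached a 2-fold ratio, since genes of few counts entered. Genes past FDR 0.1 numbered 3 in the reported fit, 38 with DESeq2, 80 with the exact test, 131 without the filter and 0 to 9 with 1 library left out. Genes past p of 0.01 numbered 202, 431 without the filter and 108 without Tko 2.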
